A study of Mus musculus with 6 samples.

Results

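Complement genes were examined in antral gastric mucosa of mice with and without the mucin gene Muc6. The 9 genes C3, C2, Cfb, C4b, C5ar1, Cfi, Cd55, Cd59a and Serping1 were chosen by name as complement components, a receptor and regulators. They and the other lists used below were chosen with earlier results of these data known. All 9 were found among the 34866 genes of the deposited table. The groups were 3 wild-type libraries (Muc6 +/+) and 3 knockout libraries (Muc6 -/-), all of mucosa from the antrum, the part of the stomach next to the duodenum. They are called wild type 1 to 3 and knockout 1 to 3. The labels name no strain, age or sex, and do not say how Muc6 was disrupted or whether each library came from its own animal. The p-values therefore reflect the spread among these libraries alone, and that spread may be technical. The series asks how Muc6 relates to gastric carcinogenesis.

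Complement is a cascade of plasma and tissue proteins that marks microbes and damaged cells. The classical, lectin and alternative pathways differ in what starts them and meet at the cleavage of C3. Most circulating complement comes from the liver, while epithelial cells, fibroblasts and macrophages also make some of its components locally. Enzymes built from C4b and C2, or from C3b and factor B, cleave C3, and later steps release the peptide C5a and can assemble a pore in membranes. Host cells carry and secrete inhibitors of each of these steps.

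Levels are given as CPM, the count of a gene per 1000000 counts of the library after scaling for composition (TMM), and means carry the SD of 3 libraries. A change is the log2 ratio of knockout to wild type from the fit, called the log2 fold change, and carries its standard error (SE). A gene is called when its adjusted p, from edgeR's quasi-likelihood test with Benjamini-Hochberg adjustment over all 14017 genes tested, is under 0.05. Library totals were 19839799 to 21354029 counts. Muc6 was at 396 to 510 CPM in wild type and had 1 count over the knockout libraries. The Y-linked genes Ddx3y and Eif2s3y were at 39.3 to 41.1 and 46.9 to 53.6 CPM in the knockout and at 0.058 to 0.326 and 0 to 0.706 CPM in wild type, so sex and genotype cannot be told apart. On the second principal component wild type 1 and knockout 1 lay at 62.6 and 43.3 and the other 4 libraries between -43.7 and -18.8. The 6 epithelial markers summed to 11500 to 14600 CPM in wild type and 11300 to 11900 CPM in the knockout, and the 5 surface (pit) cell markers to 157000 to 182000 and 37200 to 47700 CPM. The epithelial markers did not move together. Epcam, Krt18 and Cldn7 were called higher, Krt8, the most abundant of the 6, was called lower, and Cdh1 and Krt19 were not called. The 6 smooth muscle markers summed to 210, 1510 and 3230 CPM in wild type and to 73.1, 1010 and 696 CPM in the knockout, lowest in the libraries numbered 1, so the libraries held muscle RNA in unequal amounts.

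Of the 9 complement genes, all of which passed the filter on low counts, 5 were higher in the knockout, 1 was lower and 3 were not called. Over all genes tested, 38.4% were called, 19.3% higher and 19.2% lower. The called genes were those of C3 cleavage (C3, C2, Cfb and C4b) and Cfi, all higher, and Cd59a, lower. The knockout libraries lay all above the wild-type libraries for 6 of the 9 and all below for 1, where 28.2% and 26.6% of all genes tested did so and 54.8% were separated in either direction. The median log2 fold change of the 9 was 1.80, against 0.016 over all genes tested. Because the 9 were chosen with earlier results of these data known, their counts and median beside those of all genes are descriptions only. Knockout 1 was the lowest knockout library for 6 of the 9 genes and wild type 1 the lowest wild-type library for 6. Without both of these libraries 7 were higher and 1 lower, while 3394 of all 14321 genes then tested were higher and 3474 lower. In bulk tissue, more cells of a type and more RNA per cell cannot be told apart.

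**Figure D1:**
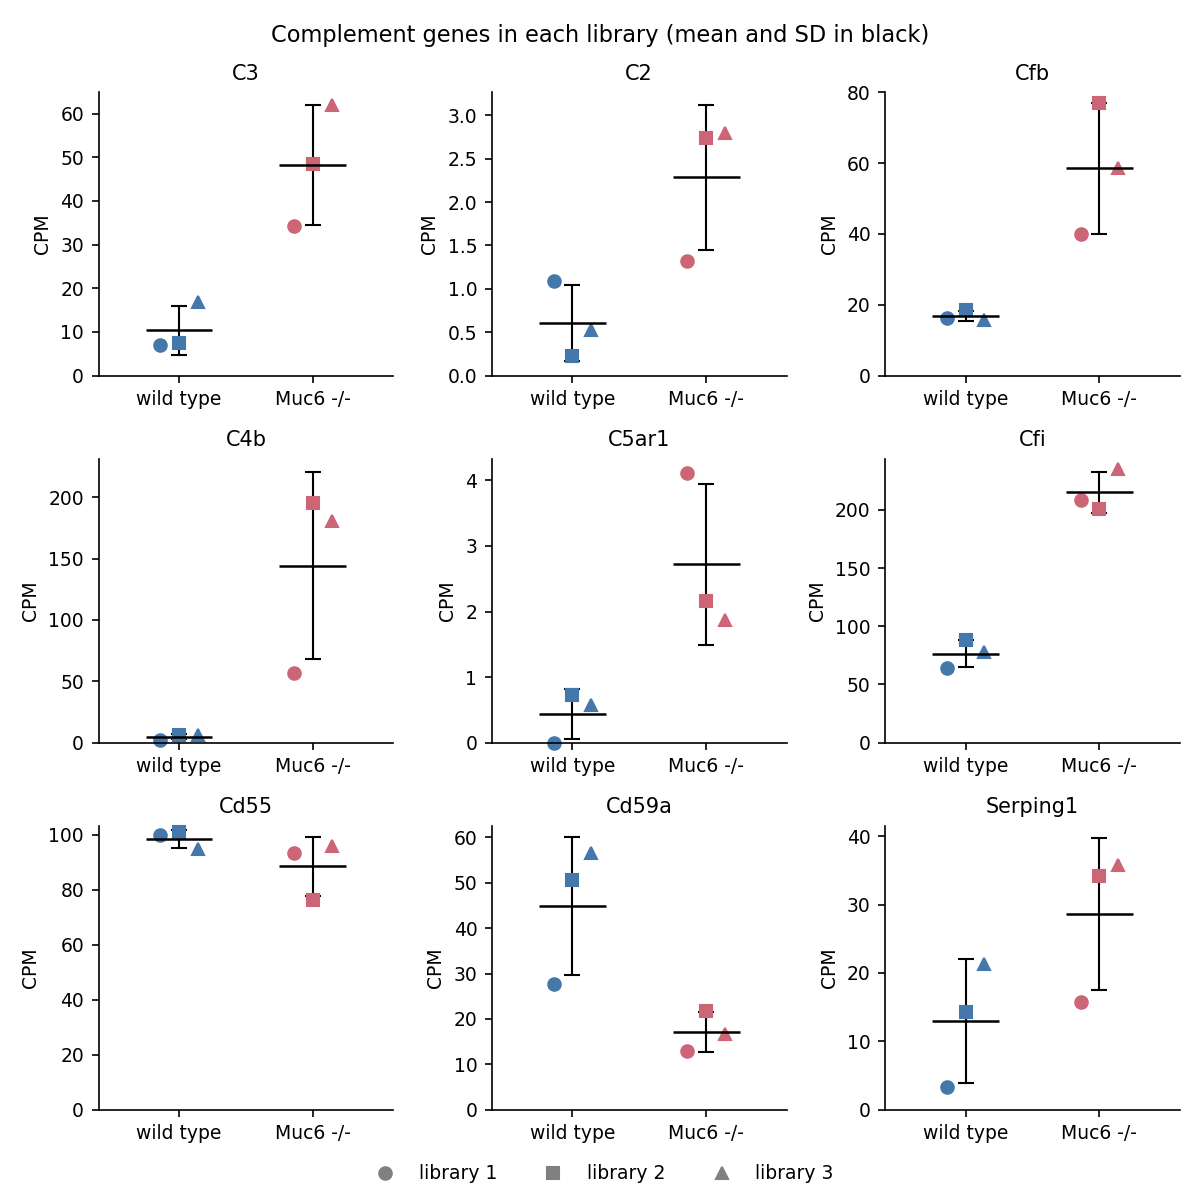
CPM (linear axes from 0) of the 9 complement genes in each library, wild type in blue and Muc6 -/- in red, with the mean and SD of each genotype in black and the library number as the symbol. The genotypes are separated for C3, C2, Cfb, C4b, C5ar1, Cfi and Cd59a and overlap for Cd55 and Serping1.

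For 4 of the 9 genes the RefSeq-derived promoter table (build GRCm38.p6) held a window, and the 250 bases before the start site are shown for the gene that is called higher and the gene that is called lower among them. The motifs searched on both strands were the NF-kappaB-type motif, the interferon-stimulated response element (ISRE), TTCNNNGAA (the GAS element of STAT factors) and TTGCNNAA (C/EBP type), and capitals mark every match. The C3 window is chr17:57228137-57228386, minus strand, and the Cd59a window chr2:104095551-104095800, plus strand.
C3: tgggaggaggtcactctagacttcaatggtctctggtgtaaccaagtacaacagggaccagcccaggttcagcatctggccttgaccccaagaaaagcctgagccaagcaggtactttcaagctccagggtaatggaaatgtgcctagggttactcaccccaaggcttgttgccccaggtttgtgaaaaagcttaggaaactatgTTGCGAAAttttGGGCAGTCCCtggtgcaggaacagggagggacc
Cd59a: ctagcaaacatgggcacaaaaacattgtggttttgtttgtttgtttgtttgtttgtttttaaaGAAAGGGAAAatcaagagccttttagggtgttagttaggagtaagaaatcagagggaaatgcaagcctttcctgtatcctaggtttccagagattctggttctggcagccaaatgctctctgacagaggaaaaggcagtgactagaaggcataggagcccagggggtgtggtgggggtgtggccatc
The C3 window held a C/EBP-type match, TTGCGAAA, whose first base lies 45 bases before the start site, and an NF-kappaB-type match, GGGCAGTCCC, at 33 bases, which do not overlap. The Cd59a window held 1 ISRE match, GAAAGGGAAA, at 187 bases. Of 32851 promoter windows of this length, 9.56% held the C/EBP-type motif, 14.9% the NF-kappaB-type motif, 2.98% the ISRE and 7.02% the GAS motif. The Cd55 window held 3 NF-kappaB-type matches and no other, and the C5ar1 window held no match to any of the 4 motifs. These matches describe the letters of the windows only. The windows of C2, Cfb, C4b, Cfi and Serping1 were not analysed here.

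C4b had the largest rise of the 9. It encodes complement C4, which is cleaved at the start of the classical and lectin pathways to build the enzyme that cuts C3, and lies on the minus strand of chromosome 17 (ENSMUSG00000073418.4, 34728380 to 34743882, mm10), in the class III part of the major histocompatibility complex. In the order of their numbers, the wild-type libraries held C4b at 2.50, 5.85 and 6.32 CPM and the knockout libraries at 56.8, 195 and 181 CPM, and all later values follow this order. Knockout 1 was lowest of the knockout libraries and still above every wild-type library. The mean went from 4.89 ± 2.08 to 144 ± 76.0 CPM (n = 3 each), 29.5-fold, with a log2 fold change of 4.88 (SE 0.66, edgeR adjusted p = 0.0042). The neighbouring copy C4a, which was not analysed here, shares 35.2% of the 50-base stretches of the longest C4b transcript, so part of the C4b count may depend on how such reads were assigned.

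C3, the protein at which the pathways meet, rose as well. The gene (ENSMUSG00000024164.15, minus strand of chromosome 17, 57203970 to 57228136) was at 7.01, 7.37 and 16.9 CPM in the wild-type libraries and at 34.3, 48.5 and 61.9 CPM in the knockout. The lowest knockout library was above the highest wild-type library, wild type 3. Means were 10.4 ± 5.60 and 48.2 ± 13.8 CPM, and the log2 fold change was 2.21 (SE 0.41, adjusted p = 0.0082).

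Cfb encodes factor B, the protease of the alternative pathway, which pairs with C3b to cleave more C3. The gene (ENSMUSG00000090231.10, minus strand of chromosome 17, 34856374 to 34862518) was at 16.3, 18.4 and 15.8 CPM in wild type, a narrow range, and at 40.0, 77.0 and 58.5 CPM in the knockout. Its log2 fold change was 1.80 (SE 0.23, adjusted p = 0.0015), from 16.8 ± 1.36 to 58.5 ± 18.5 CPM.

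C2, the protease that does the same work with C4b in the classical and lectin pathways, lies next to Cfb (ENSMUSG00000024371.14, chromosome 17, 34862604 to 34898265, minus strand) and had far fewer counts, 33 over wild type and 161 over the knockout. It was at 1.09, 0.225 and 0.522 CPM in the wild-type libraries and at 1.32, 2.74 and 2.79 CPM in the knockout. Wild type 1 and knockout 1 came close to each other. The log2 fold change was 1.89 (SE 0.63, adjusted p = 0.0472), and the call did not hold when wild type 2 (0.127), wild type 3 (0.126), knockout 2 (0.137) or knockout 3 (0.126) was left out. The exons of C2 share 161 bases with Zbtb12 on the other strand, which had 102 counts over wild type and 234 over the knockout, and whether counting used the strand was not stated. An annotated gene that runs through C2 and Cfb on the same strand, Gm20547, had 0 counts in every library, although it holds 58% of the 50-base stretches of the longest C2 transcript and 81.4% of those of Cfb.

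The receptor gene C5ar1 was not called. It encodes the receptor for C5a, which draws neutrophils and other myeloid cells and activates them, and lies on chromosome 7 (ENSMUSG00000049130.6, 16246743 to 16259540, minus strand). C5ar1 was at 0, 0.731 and 0.580 CPM in the wild-type libraries and at 4.12, 2.16 and 1.88 CPM in the knockout, 23 counts against 192. All knockout libraries were above all wild-type libraries, and knockout 1 was the highest. The log2 fold change was 2.63 (SE 0.92, adjusted p = 0.0571). It passed with DESeq2 (0.0136), with limma-voom (0.042) and with total counts (0.0297). It also passed, with a smaller log2 fold change, when wild type 1 was left out (2.03, adjusted p = 0.0231) or both libraries numbered 1 were (1.59, adjusted p = 0.0206). The 7 neutrophil markers summed to 192 CPM in knockout 1, to 4.57 and 6.06 CPM in the other two knockout libraries and to 0.326 to 1.39 CPM in wild type, with 1 of 5 tested called higher and Ly6g at 0 in wild type. All 5 tested were higher at an unadjusted p under 0.05, 2 with DESeq2 and 0 with limma-voom. The 8 macrophage and monocyte markers summed to 178, 95.3 and 87.8 CPM in the knockout and to 20 to 85.5 CPM in wild type, with 0 of 8 called by edgeR, 3 higher at an unadjusted p under 0.05, 2 higher with DESeq2 and none at 0 in either genotype. Their part in the C5ar1 values was not tested.

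**Figure D2:**
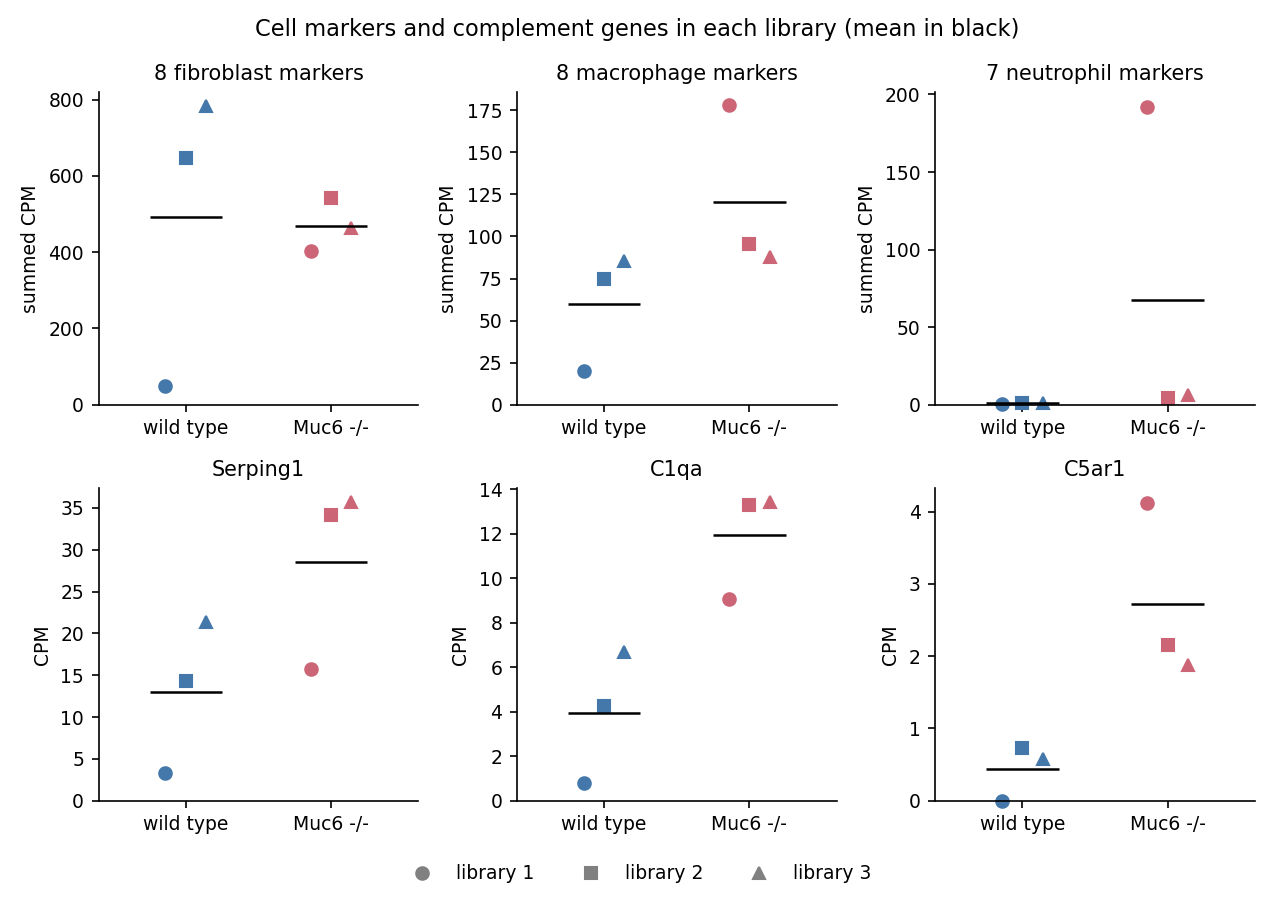
Summed CPM of marker genes (upper row) and CPM of Serping1, C1qa and C5ar1 (lower row) in each library, with the mean of each genotype in black, the library number as the symbol and linear axes from 0. Wild type 1 is low for fibroblast and macrophage markers, Serping1 and C1qa, and knockout 1 is high for neutrophil markers and C5ar1.

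The regulators went different ways. Cfi encodes factor I, the protease that inactivates C3b and C4b with the help of cofactors. The gene (ENSMUSG00000058952.12, plus strand of chromosome 3, 129835884 to 129875332) was at 64.1, 88.1 and 77.6 CPM in the wild-type libraries and at 209, 201 and 235 CPM in the knockout. The groups were far apart relative to their spread, with means of 76.6 ± 12.0 and 215 ± 18.0 CPM and a log2 fold change of 1.49 (SE 0.14, adjusted p = 0.000569).

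Cd59a fell. It encodes a membrane-anchored protein that blocks the final pore and lies on the plus strand of chromosome 2 (ENSMUSG00000032679.12, 104095801 to 104115354). Cd59a was at 27.8, 50.6 and 56.6 CPM in the wild-type libraries and at 12.9, 21.7 and 16.6 CPM in the knockout, with no overlap. Its log2 fold change was -1.40 (SE 0.31, adjusted p = 0.0126), and the call ended without wild type 2 (0.0528). The neighbouring copy Cd59b, which shares 3.98% of the 50-base stretches of the longest Cd59a transcript, also fell, from 4.90 ± 0.70 to 2.03 ± 0.47 CPM, with a log2 fold change of -1.26 (SE 0.31, adjusted p = 0.0167). The Cd59b call ended with total counts (0.0568), without wild type 2 (0.0726) and without knockout 2 (0.0698).

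Cd55, the decay-accelerating factor, takes apart the enzymes that cleave C3 on the surface of host cells. The gene (ENSMUSG00000026399.12, minus strand of chromosome 1, 130439027 to 130462744) was at 99.8, 101 and 94.8 CPM in the wild-type libraries and at 93.3, 76.3 and 96.0 CPM in the knockout, and the groups overlapped. The log2 fold change was -0.16 (SE 0.11, adjusted p = 0.316) and turned to 0.26 with total counts. Its copy Cd55b, with 10.7% of the 50-base stretches of the longest Cd55 transcript, was at 0.796 ± 0.516 and 0.781 ± 0.101 CPM.

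Serping1 encodes the C1 inhibitor, which stops the proteases of the classical and lectin pathways. The gene (ENSMUSG00000023224.12, minus strand of chromosome 2, 84765387 to 84775444) was at 3.31, 14.3 and 21.3 CPM in the wild-type libraries and at 15.8, 34.2 and 35.8 CPM in the knockout, and knockout 1 lay within the wild-type range. The log2 fold change was 1.14 (SE 0.69, adjusted p = 0.248). Without both libraries numbered 1 it was 0.95 (adjusted p = 0.0041). The 8 fibroblast markers summed to 48.6 CPM in wild type 1, to 646 and 783 CPM in wild type 2 and 3 and to 402 to 541 CPM in the knockout, with 0 of 8 called by edgeR or DESeq2, 1 higher at an unadjusted p under 0.05 or with limma-voom, and none at 0 in either genotype. Their part in the Serping1 values was not tested.

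**Figure D3:**
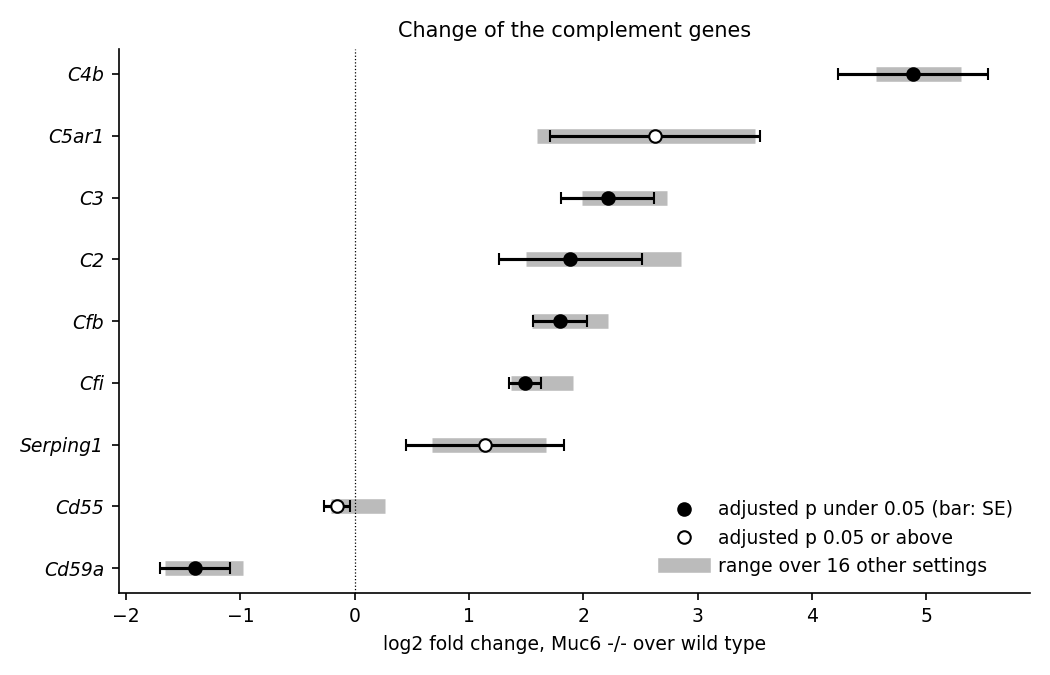
Log2 fold change of knockout over wild type for the 9 complement genes with its SE, filled where the edgeR adjusted p is under 0.05, and in grey the range over 16 other settings. C4b stands at 4.88 and Cd59a at -1.40, and the grey range crosses 0 for Cd55.

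Levels between genes were compared as CPM per kilobase of annotated exon. In wild type the mean levels were, from the highest, Cfi (34.5 per kilobase), Cd59a (24.8), Cd55 (20.3), Cfb (5.96), Serping1 (5.59), C3 (2.03), C4b (0.859), C5ar1 (0.170) and C2 (0.158). The regulators Cfi, Cd59a and Cd55 were thus above every component gene in wild type. Libraries of Cfi and Cd59a overlapped, as did those of Cd59a and Cd55, of Cfb and Serping1, of Serping1 and C3, and of C5ar1 and C2. In the knockout the order of mean levels was Cfi (96.8 per kilobase), C4b (25.3), Cfb (20.7), Cd55 (18.3), Serping1 (12.3), Cd59a (9.42), C3 (9.38), C5ar1 (1.06) and C2 (0.590). C4b moved from the seventh place to the second and Cd59a from the second to the sixth. From C4b to C3 each neighbour in this order overlapped the next in its library values, with the exception of Cd55 and Serping1, while Cfi stood apart from all.

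**Figure D4:**
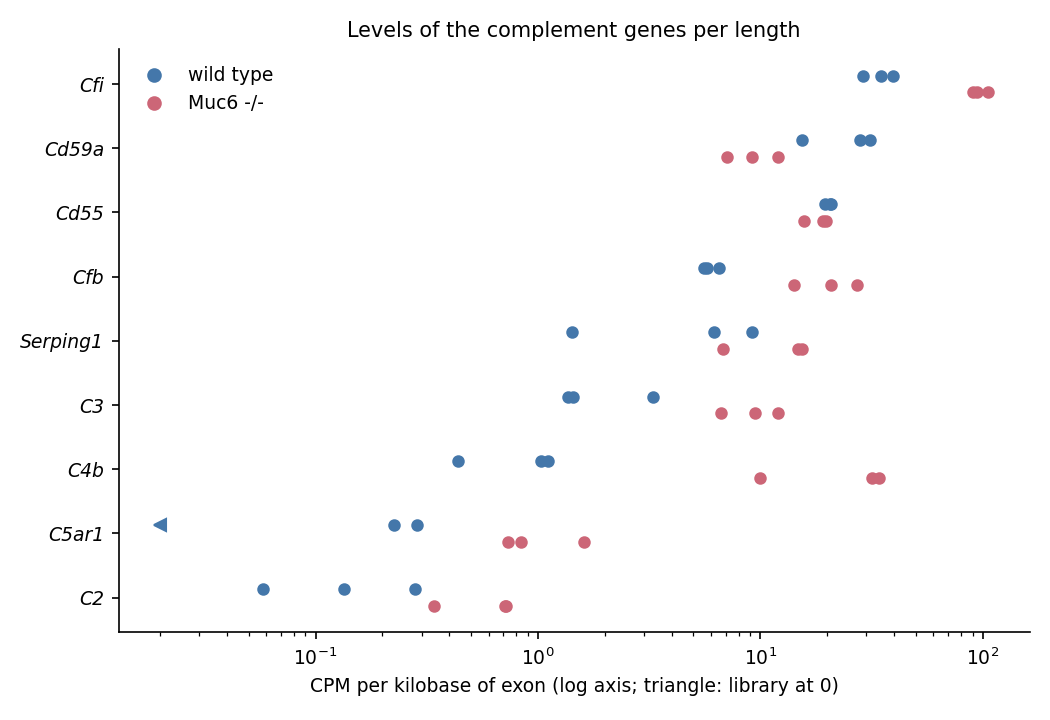
CPM per kilobase of exon on a log axis for each library, wild type in blue and Muc6 -/- in red, with genes in the order of their wild-type mean and a triangle for the wild-type library in which C5ar1 was at 0. Cfi is highest in both genotypes and C4b passes from 0.859 to 25.3 per kilobase.

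Other genes of the cascade were examined in the same fit. Of 51 further genes of the cascade, 50 were in the table and 28 passed the filter, of which 8 were higher, 2 lower and 18 not called, a share near the 38.4% called over all genes tested. Without both libraries numbered 1, 14 were higher and 3 lower, in the setting that also called more of all genes, as given above. Of the 22 that were not tested, 3 had no counts at all and none exceeded 20 counts over a genotype. These included most genes of the pore and of its start. Hc, which encodes C5, and C8b had 1 count each over all libraries, C9 had 0, and C6 had 0 in wild type and 17 in the knockout (named after their values were seen).

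Among the genes that start the cascade, 2 of 9 tested were higher and 7 not called, close to the 19.3% higher over all genes tested. C1ra, a protease of the C1 complex, was at 1.85, 3.66 and 7.31 CPM in the wild-type libraries and at 9.13, 20.2 and 23.3 CPM in the knockout, a log2 fold change of 2.04 (SE 0.57, adjusted p = 0.0321). The call did not hold when wild type 1 (0.0547), wild type 2 (0.117), knockout 2 (0.0831) or knockout 3 (0.079) was left out, or with no filter on low counts (0.0698). Its near copy C1rb shares 48% of the 50-base stretches of the longest C1ra transcript and had 1 count. Masp1, a protease of the lectin pathway, went from 0.300 ± 0.066 to 1.26 ± 0.475 CPM (2.05, SE 0.53, adjusted p = 0.0203) and kept its call only when the library left out was wild type 1 or knockout 1 (0.0572 to 0.0856 for the other 4). The partner protease C1s1 was at 1.96, 26.7 and 30.3 CPM in the wild-type libraries and at 22.0, 48.4 and 56.1 CPM in the knockout (adjusted p = 0.397), with wild type 1 lowest as for the fibroblast markers given above. C1s1 was called higher in 1 of 16 other settings.

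C1qa, C1qb and C1qc encode the chains of C1q, which binds antibody and is made largely by macrophages. They were chosen after their values were seen and were not called. C1qa was at 0.815, 4.28 and 6.67 CPM in the wild-type libraries and at 9.05, 13.3 and 13.4 CPM in the knockout, a log2 fold change of 1.61 (SE 0.66, adjusted p = 0.0987), and C1qb and C1qc were also separated between the genotypes, at 1.65 and 1.25 (adjusted p = 0.127 and 0.154). Without both libraries numbered 1 all 3 passed (0.0033 to 0.0282), and C1qa and C1qb passed with DESeq2 (0.0185 and 0.0277). The macrophage marker sums given with C5ar1 moved only in part with them. Wild type 1 was lowest for both, but knockout 1 was the highest knockout library for the sum and the lowest for all 3 C1q genes. Colec10, a collectin of the lectin pathway, was at 1.36, 36.5 and 52.1 CPM in the wild-type libraries and at 1.15, 3.87 and 3.45 CPM in the knockout. It was not called with all 6 libraries (adjusted p = 0.0897) and was lower without wild type 1 (0.00503).

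Of the further component genes 3 of 9 were tested and 0 called by edgeR or DESeq2, and they are named after their values were seen. Cfp, which encodes properdin, the stabiliser of the alternative-pathway enzyme, was the 1 with an unadjusted p under 0.05. It was at 0.924, 0.619 and 1.51 CPM in the wild-type libraries and at 2.0, 2.08 and 2.66 CPM in the knockout (log2 fold change 1.14, SE 0.45, adjusted p = 0.079). Cfd, which encodes factor D, the protease that cuts factor B and is abundant in fat, was at 0.0543, 10.9 and 8.41 CPM in the wild-type libraries and at 0, 2.33 and 0 CPM in the knockout. Wild type 1 lay with the knockout (adjusted p = 0.309). C8g, which encodes a chain of C8, was at 0.965 ± 0.436 and 0.931 ± 0.283 CPM (adjusted p = 0.944).

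Among the receptors 2 of 5 tested were higher and 3 not called, where 19.3% of all genes tested were higher. C5ar2, a second receptor for C5a, had 5 counts in wild type and 58 in the knockout (log2 fold change 3.06, SE 0.78, adjusted p = 0.019), and the call ended without wild type 3, knockout 2 or knockout 3 (0.0578 to 0.0619). Itgax, a subunit of complement receptor 4 on myeloid cells, went from 0.778 ± 0.584 to 3.75 ± 0.611 CPM (2.27, SE 0.69, adjusted p = 0.0349) and lost its call without any single library other than wild type 1 (0.0542 to 0.0933).

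Among the further regulators 4 of 11 tested were higher (36.4%) and 2 lower (18.2%), against 19.3% and 19.2% over all genes tested. Clu encodes clusterin, a secreted chaperone that also restrains the pore. Clu was at 1088, 864 and 810 CPM in the wild-type libraries and at 10900, 5554 and 4782 CPM in the knockout, a log2 fold change of 2.94 (SE 0.34, adjusted p = 0.0012), with knockout 1 highest. C4bp, a cofactor that binds C4b, went from 2.83 ± 1.08 to 10.4 ± 4.91 CPM (1.87, SE 0.43, adjusted p = 0.0127). Cfhr2 had 1 count in wild type and was at 1.49, 16.6 and 29.3 CPM in the knockout. The ratio was 837, and its 95% interval for counting error alone ran from 150 to 33090 (adjusted p = 0.0108). Its call ended with limma-voom (0.255) and without any single wild-type library (0.0523 to 0.0853). Whether its reads are shared with near copies was not tested.

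Of the membrane regulators, Cd46, a cofactor for factor I, fell from 3.48 ± 0.85 to 1.68 ± 0.21 CPM (log2 fold change -1.05, SE 0.34, adjusted p = 0.0457). The call ended with total counts (0.164), with no filter on low counts (0.0804) and without any single library other than wild type 1 (0.0904 to 0.156). Cr1l (Crry), the main membrane regulator of C3 cleavage in rodents, was at 71.7 ± 5.62 and 68.3 ± 4.94 CPM, with a log2 fold change of -0.07 (SE 0.11, adjusted p = 0.627), and was called higher, at 0.35, with total counts (0.0265). Cpn1, a subunit of the carboxypeptidase that inactivates C3a and C5a, was at 52.2 ± 1.01 and 65.1 ± 27.7 CPM (adjusted p = 0.449), with the knockout libraries at 36.4, 67.1 and 91.7 CPM. Cpn1 was called higher in 2 of 16 other settings.

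**Figure D5:**
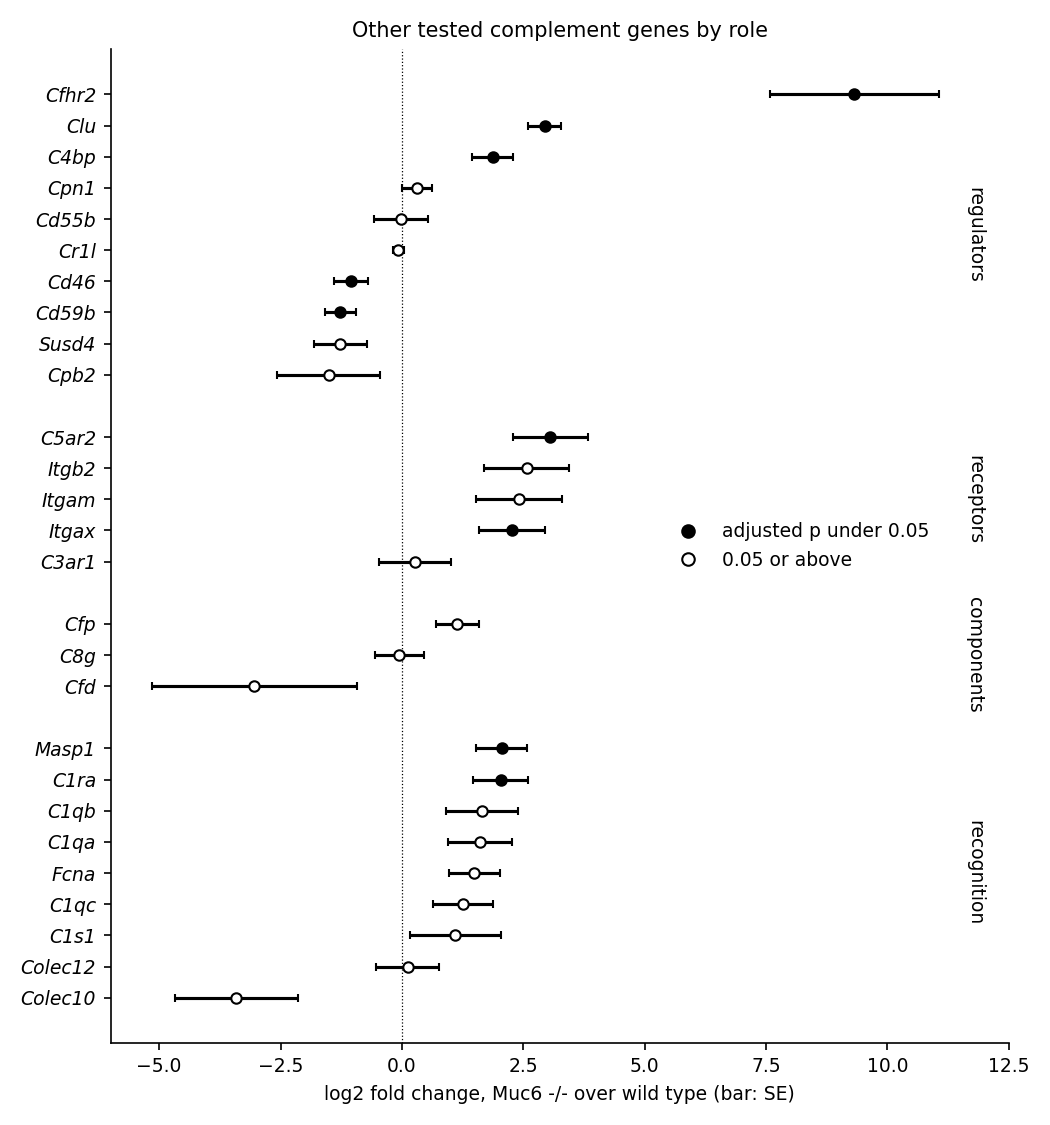
Log2 fold change of knockout over wild type with its SE for the other complement genes tested, grouped by role (1 is not shown) and filled where the edgeR adjusted p is under 0.05. Cfhr2 is farthest to the right, with 1 wild-type count behind its value, and the filled points to the left of 0 are Cd46 and Cd59b.

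C2, Cfb and C4b share the class III region with genes of other function. Of 12 neighbours listed, 10 were tested, 4 were higher and 6 not called, against 19.3% higher over all genes tested. Ppt2, a lysosomal thioesterase, rose by 1.02 (SE 0.16, adjusted p = 0.0032), Atf6b, an ER stress factor, by 0.76 (SE 0.16, 0.0086), Ehmt2, a histone methyltransferase, by 0.65 (SE 0.14, 0.0089) and Dxo, a decapping enzyme, by 0.72 (SE 0.22, 0.035) on the log2 scale. The Dxo call ended without any single library other than wild type 1 (0.0552 to 0.115). Zbtb12 and Skiv2l were at 0.79 and 0.26 and were not called (adjusted p = 0.111 and 0.268). Cyp21a1, a steroid hydroxylase gene named after its values were seen, did not pass the filter and had 0 counts in wild type and 148, 14 and 7 in the knockout libraries.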

How the data were processed

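Per the labels' protocols, a Nucleospin kit gave the RNA and TruSeq Stranded mRNA the libraries. The authors deposited estimated counts per gene (28.8% to 34.25% of values above 0 were not whole). The build was mm10, per the submitters' processing notes. Aligner, counter, annotation and use of strand: not given in the sources used here. Counts were rounded. Symbols, coordinates and exon lengths came from GENCODE M21, on the same build (34652 of 34866 identifiers matched). No library was a copy of another, since counts of same-genotype libraries differed beyond sampling (chi-square over its degrees of freedom, 16 to 79.6).

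Genes kept by filterByExpr (14017) were scaled with TMM and tested with edgeR 4.0.16 (robust quasi-likelihood, Benjamini-Hochberg, threshold 0.05), in R 4.3.3. The SE is the log2 fold change divided by the root of F. The fit was tested on simulated data in which 200 of 14017 genes changed. All genes there had the same spread (biological coefficient of variation 0.283). In it, 18% of genes with a log2 change of 1 and 95% with 2 were called. In the real data 38.4% of genes were called and the spread differed between genes, so these shares do not carry over to it. A gene not called may still have changed. With no counts in a genotype a floor of 3 counts for the genotype was used (wild type 0.0562 CPM, knockout 0.0425 CPM). 1 to 3 counts give a ratio with an exact 95% interval. Named genes are the 9, called genes of the cascade, its 4 most abundant uncalled genes, close copies, up to 6 each of the neighbours and of the inducers and factors by smallest p, and the nearest profiles; 3 genes that this rule names are not reported here. The members and lists were chosen with earlier results of these data known. Alternatives were other scalings, filters, DESeq2 1.42.0, limma-voom (limma 3.58.1), the replicate number as a block, a threshold of 0.01 and libraries left out.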

Additional observations from a re-analysis of the deposited data

How the results depend on the processing

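C3, Cfb, C4b and Cfi kept their direction and call in all 16 other settings, with log2 fold changes of 1.99 to 2.73, 1.55 to 2.22, 4.56 to 5.30 and 1.37 to 1.91. Leaving out 1 library gave 4 to 6 complement genes higher and 0 to 1 lower, 3 to 9 further genes of the cascade higher and 0 to 3 lower with a median of 0.92 to 1.55 (1.2 with all 6), and 1600 to 3045 genes higher and 1721 to 2964 lower over all tested. A group with 2 libraries is assumed to vary like the other. Cd59a was the 1 member lower, and was not called without wild type 2. With total counts the all-gene median went from 0.0162 to 0.433, with 5730 genes higher and 1091 lower over all tested, with 14 and 0 of the further genes and a median of 1.61. At a threshold of 0.01, 1257 and 1408 of all genes, 4 and 0 of the 9 and 1 and 0 of the further genes were called. The further genes numbered 13 higher with DESeq2, 1 lower with no filter, and 14 higher with a median of 0.85 without both libraries numbered 1. The median was 1.5 with limma-voom. Reversed values were those of genes not called with all 6 libraries. Cd55 was at 0.26 and Cr1l at 0.35 with total counts. Leaving out 1 library gave -0.0065 (without knockout 3) to 0.61 for Cpn1 and -0.28 to 0.63 for Cd55b. Cd55b was at 0.39 with total counts, 0.13 with limma-voom, 0.11 with the replicate block, 0.63 without wild type 3 and 0.085 without knockout 2. The cause of these changes was not tested. Same-numbered libraries correlated in their deviations at 0.252, 0.0908 and 0.191. Wild type 1 and wild type 2 each correlated best with the knockout library of the same number, but wild type 3 with knockout 2 (0.275). The numbers were therefore not taken to pair samples. Whether the libraries numbered 1 share a source of variation was not tested. The replicate block gave 5 of the 9 higher and 1 lower, 9 further genes higher and 2 lower and a median of 1.44, with Serping1 (adjusted p = 0.0228), C1qa (0.0365) and Colec10 (0.0424) called and C2 (0.0775) and Cd46 (0.0682) not. Depth limits C2, C5ar1, C5ar2 and Masp1, with 5 to 33 counts over wild type, and also Cfhr2, Tnf and Il6, with 1, 3 and 0.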

Other observations

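Genes of cytokines and transcription factors known to act on complement genes were listed as well, also with earlier results of these data known. Of 16 listed, 12 were tested, of which 11 were higher in the knockout and 1 was not called, where 19.3% of all genes tested were higher. Cebpd, a factor of the acute-phase response, went from 6.98 ± 0.266 to 14.8 ± 1.05 CPM (log2 fold change 1.08, SE 0.15, edgeR adjusted p = 0.0017). Nfkb1 and Stat3 rose by 0.64 each (SE 0.10 each, adjusted p = 0.0025 and 0.0027). The cytokine gene Il6 had 0 counts in wild type and 122 in the knockout, which is at least 30.8-fold higher with wild type set to 3 counts for the genotype. Tnf had 3 counts in wild type and 168 in the knockout, a ratio of 42.4 (95% counting interval 14.3 to 208), and was at 5.48 CPM in knockout 1 against 1.16 and 0.480 CPM in knockout 2 and 3. Its call ended with limma-voom (adjusted p = 0.0546) and without any single wild-type library (0.0557 to 0.0786). Ifng had 4 counts, all in knockout 1, and Il22 had 0 in every library (both named after their values were seen).

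Candidates for a profile like that of C3 or Cfb were 9953 tested genes of at least 5 CPM on average. The listed complement genes and genes with Gm, Rik or clone names were left out, so other complement genes were not compared. Profiles of log2 CPM over the 6 libraries were centred on their own means. The candidates most like C3 and Cfb were those with the smallest root mean square difference. For C3 they included Per2 (0.19), a circadian clock gene, and Bdh2 (0.26), of 3 genes taken by the rule. Per2 was at 3.21, 2.42 and 5.86 CPM in the wild-type libraries and at 13.9, 15.6 and 21.3 CPM in the knockout. For Cfb they were Far2 (0.046), Tspan4 (0.15) and Adamts15 (0.17). Far2, a fatty acyl reductase gene, was at 3.37, 3.94 and 3.02 CPM in the wild-type libraries and at 8.63, 17.8 and 12.8 CPM in the knockout. These are descriptions over libraries that also differ in sex.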
